A study of Triticum aestivum with 3 samples.

Results

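Gene-to-gene loops (GGLs) are contacts between genomic bins that each hold a gene, and here they were described by the strands of the genes they join. Of the 1580 unique gene pairs in the part of the loop table used here, 708 (44.8%) joined genes on opposite strands and 872 joined genes on the same strand. The strand of each gene was taken from its longest listed interval, and no expression value was used to choose the pairs. The 708 pairs were divided by the order of their gene starts into 364 divergent pairs, in which the gene that starts first is on the minus strand, and 344 convergent pairs, in which it is on the plus strand. The expression values come from 3 biological replicates of wild-type shoots of Chinese Spring, the hexaploid wheat cultivar whose genome is the reference, grown on agar plates under long days at a single condition. The labels give the seedlings' age as 12 days in one field and 14 days in another. Since there was a single condition, no test between groups of samples was possible.

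Orientation decides which ends of a pair of genes face each other. Facing refers to direction only, as other genes can lie between looped partners. In a divergent pair the promoters, where RNA polymerase II starts, are the facing ends, whereas in a convergent pair the transcription ends face each other and in a same-strand pair a start faces an end. Divergent genes that lie almost back to back can share a single open promoter region that fires in both directions, and convergent genes that nearly meet can be transcribed into each other. Same-strand neighbours include the tandem arrays that arise when a gene is copied beside itself, which are common in the large genomes of cereals. A chromatin loop can bring the ends of distant genes together whatever their orientation, which is why the strand of looped partners is of interest beside their expression.

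Few opposite-strand loops were of the back-to-back kind. The gap between the facing gene ends had a median of 127 kb (quartiles 54.1 and 655 kb), against a median of 108 kb in same-strand pairs. The gene starts were under 5 kb apart in 2 of the 364 divergent pairs and under 20 kb apart in 5, and the gene ends were under 20 kb apart in 8 of the 344 convergent pairs. Loops were called in the study from bins of 20 kb, and genes closer than that fall into the same or neighbouring bins. By distance, 156 opposite-strand pairs had a gap under 50 kb, 157 of 50 to 100 kb, 110 of 100 to 200 kb, 124 of 200 kb to 1 Mb and 161 of 1 Mb or more. Same-strand pairs leaned to the shorter classes, with 425 of 872 under 100 kb against 313 of 708. The farthest opposite-strand partners were 628 Mb apart on the same chromosome.

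The 708 pairs involved 1146 genes, 802 of them high-confidence models and 344 low-confidence. Both partners were high-confidence in 347 pairs (49.0%, against 52.5% of same-strand pairs), 283 pairs joined a high-confidence with a low-confidence gene, and 78 joined low-confidence genes only. The genes were not a class of their own, since 416 of the 1146 also belonged to a same-strand pair and 109 belonged to divergent and convergent pairs alike. Within opposite-strand pairs, 933 genes occurred once and 213 more often, so the pairs are not independent of each other. Median transcript length was 1176 bases, against 1213 in the genes of same-strand pairs, and 12.7% of the genes had more than 1 annotated transcript, against 12.9%. Chromosome 1A held 536 of the pairs and chromosome 1B 172, the latter with first genes within the first 56.0 Mb of the chromosome. Genes are given by identifier, as no name or function was paired with them in the sources used here.

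The libraries held 75465873, 76337649 and 67470696 estimated counts in replicates 1, 2 and 3. Levels are in TPM, the length-corrected share of a library's transcripts on a fixed total, summed over the transcripts of a gene, and genes whose median over the replicates exceeded 0 count as expressed. By a library's median TPM per count, 3 estimated counts correspond to 0.0325 to 0.0343 TPM, so calls near 0 rest on very few reads. Over all 165276 annotated genes, 61.3% were expressed by this rule. Intervals given below are 95% Wilson intervals, which cover counting error only and take pairs as independent, so that they are too narrow for pairs that share genes. The replicates share the same pairs, so the spread between them covers the plants and libraries but not the choice of pairs.

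Of the 1146 genes in opposite-strand pairs, 702 (61.3%) were expressed, the same share as over all annotated genes. Of these 1146 genes, 644 were above 0 TPM in all 3 replicates, 372 were listed at 0 in all 3, and 130 were above 0 in some replicates only. The expressed genes had a median of 0.990 TPM, 349 genes reached 1 TPM, 81 reached 10 TPM and 4 reached 100 TPM. In the 1330 genes of same-strand pairs, the expressed ones had a median of 1.07 TPM. Of those 1330 genes, 400 reached 1 TPM, 92 reached 10 TPM and 1 reached 100 TPM, so the levels were much alike. The call rested on under 3 estimated counts, by the median, in 82 of the 702.

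Both partners were expressed in 288 of the 708 opposite-strand pairs (40.7%, interval 37.1 to 44.3%), exactly 1 partner in 283 and neither in 137 (19.4%, 16.6 to 22.4%). In same-strand pairs both were expressed in 334 of 872 (38.3%, 35.1 to 41.6%) and neither in 209 (24.0%, 21.3 to 26.9%). Pairs of silent genes were thus somewhat less frequent on opposite strands, by 4.62 percentage points with the median of the replicates and by 5.19, 3.77 and 3.72 points in single replicates, while the intervals of both kinds of pair overlap. Concordant pairs, with both partners expressed or neither, made up 60.0% of opposite-strand pairs (56.4 to 63.6%) and 62.3% of same-strand pairs (59.0 to 65.4%), where all 1580 loop pairs gave 61.3%. Replicate by replicate, the concordant share of opposite-strand pairs was 60.0, 60.0 and 61.2%, and that of same-strand pairs 62.6, 61.5 and 61.8%. The difference of -2.24 points was -2.59, -1.44 and -0.65 points in single replicates. It changed sign with the mean of the replicates in place of the median (1.91 points) and with every replicate left out in turn (0.50 to 1.41 points). These settings count a gene as expressed when it is above 0 in any replicate kept. When every listed row was counted, so that gene pairs listed more than once weighed more, the difference was 1.37 points. With cuts at 0.5 TPM, 1 TPM and 3 estimated counts it was -6.15, -5.91 and -6.37 points. Its sign thus varied with the rule for expression and with the pairs counted, and no direction was given to it. It was -2.23 points when taken within the 5 distance classes and weighted by the opposite-strand pairs.

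**Figure D1:**
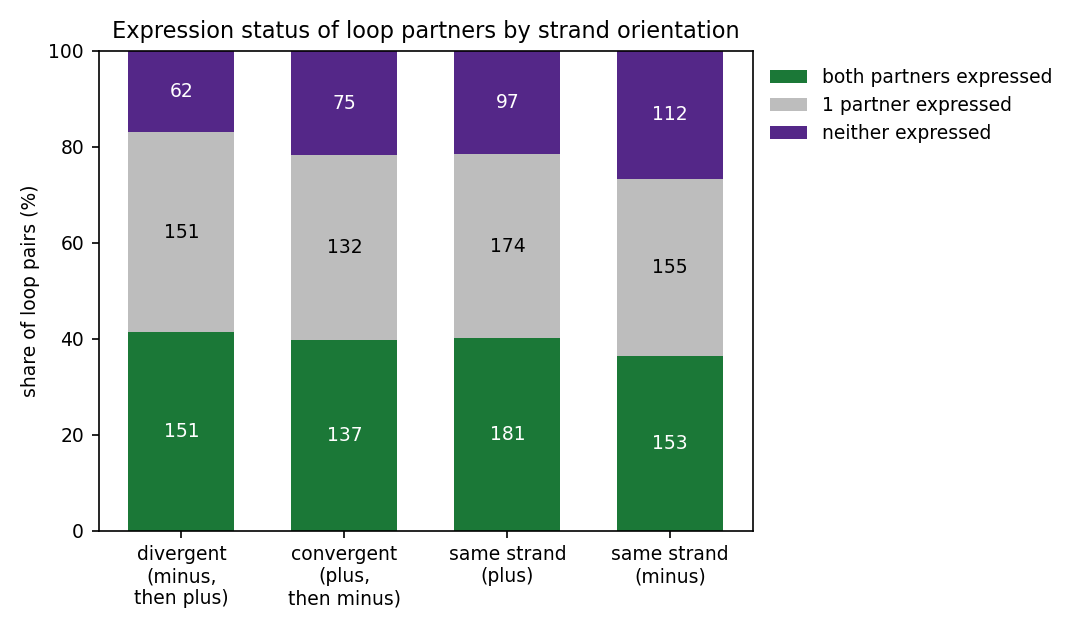
Share of loop pairs in percent (vertical axis) with both partners expressed, 1 partner expressed or neither, by strand orientation, with the number of pairs written in each bar segment. Neither partner was expressed in 62 of 364 divergent and 75 of 344 convergent pairs, against 97 of 452 and 112 of 420 same-strand pairs on the plus and the minus strand.

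Relative to how often each partner was expressed at all, status went together in opposite-strand pairs too. Independent partners with the same frequencies would be concordant in 52.2% of them, against the 60.0% seen. These values pool both chromosomes, although silent opposite-strand pairs made up 14.4% on chromosome 1A and 34.9% on 1B. On 1A alone, 59.9% were concordant, against 54.7% for independent partners. The log2 odds ratio between the status of the partners was 0.99 in opposite-strand pairs (0.98, 1.02 and 1.08 in single replicates) and 1.38 in same-strand pairs (1.43, 1.28 and 1.29). The single replicates of these kinds of pair did not overlap in this value over all pairs, but the order depended on distance. Under 100 kb the log2 odds ratio was 1.00 in opposite-strand and 1.82 in same-strand pairs, and at 100 kb or more it was 0.98 and 0.89. At 100 to 200 kb it was 1.21 and 0.36, and at 200 kb to 1 Mb 1.93 and 1.51. In pairs of high-confidence genes it was 1.46 and 1.62, with the reverse order in replicate 3 (1.81 and 1.58). On chromosome 1A alone the log2 odds ratio of opposite-strand pairs was 0.72. The gene that starts first was expressed in 62.4% of opposite-strand pairs and the gene that starts second in 58.9%. When only 1 partner was expressed, it was the plus-strand gene in 149 pairs and the minus-strand gene in 134, so neither strand was set apart.

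Divergent and convergent pairs differed little in the number of pairs with both genes on. Both partners were expressed in 151 divergent pairs (41.5%, 36.5 to 46.6%) and in 137 convergent pairs (39.8%, 34.8 to 45.1%), and single replicates gave 40.4, 40.4 and 42.6% against 41.0, 39.2 and 42.4%. Neither was expressed in 17.0% of divergent pairs (13.5 to 21.2%) and 21.8% of convergent pairs (17.8 to 26.5%), with 16.8, 18.7 and 16.8% against 22.1, 21.8 and 20.6% in single replicates. The replicates did not overlap for silent pairs, whereas the intervals over pairs did. Concordant pairs made up 58.5% of divergent and 61.6% of convergent pairs, and the log2 odds ratio was 0.72 and 1.27. This order was not stable, because with both genes high-confidence the concordant share was 68.0% of 172 divergent pairs and 62.9% of 175 convergent pairs. In a set of pairs that share no gene, the shares were 61.3% of 204 and 60.1% of 178. By chromosome, concordant pairs made up 60.3% of 282 divergent and 59.4% of 254 convergent pairs on 1A. On 1B they made up 52.4% of 82 divergent pairs (41.8 to 62.9%) and 67.8% of 90 convergent pairs (57.6 to 76.5%), while the order on 1A was the reverse by under 1 point.

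The model confidence of the partners went with the order of divergent and convergent pairs. Where a high-confidence gene was joined to a low-confidence one, status was concordant in 47.6% of 147 divergent pairs (39.7 to 55.6%) and 58.1% of 136 convergent pairs (49.7 to 66.0%). In the 78 pairs of low-confidence genes it was concordant in 57.8% of 45 divergent and 69.7% of 33 convergent pairs. Adjacent genes of the high-confidence set, with no other such gene between them, made up 51 divergent and 34 convergent pairs. Both of these neighbours were expressed in 31 of the 51 divergent pairs (60.8%) and 16 of the 34 convergent pairs (47.1%), against 72 of 147 adjacent same-strand pairs (49.0%). With so few pairs the interval of the convergent share is wide, and the part of gene confidence in the difference was not tested.

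Distance separated the orientations more than the totals did. Under 50 kb, neither partner was expressed in 31 of 156 opposite-strand pairs (19.9%, 14.4 to 26.8%) and in 63 of 209 same-strand pairs (30.1%, 24.3 to 36.7%). At 50 to 100 kb the share was 19.1% of 157 opposite-strand pairs (13.7 to 26.0%) and 31.5% of 216 same-strand pairs (25.7 to 38.0%). Silent pairs were therefore less common among opposite-strand loops in both short classes, although the intervals overlapped slightly in each. Divergent and convergent pairs were at 19.5 and 20.3% under 50 kb, and at 13.4 and 25.3% at 50 to 100 kb. The comparison below 100 kb was chosen after the data were seen. Over all gaps below 100 kb, the difference was -11.3 points, with -10.3, -12.8 and -10.02 in single replicates. It was -11.4 points in pairs of high-confidence genes and -13.7 points in pairs that share no gene, but -4.84 points when every listed row was counted. The difference was seen on chromosome 1A, where 32 of 245 opposite-strand pairs (13.1%, 9.41 to 17.9%) and 98 of 343 same-strand pairs (28.6%, 24.0 to 33.6%) were silent. On chromosome 1B, 29 of 68 (42.6%) and 33 of 82 (40.2%) were silent, a difference in the other direction and within the counting error.

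**Figure D2:**
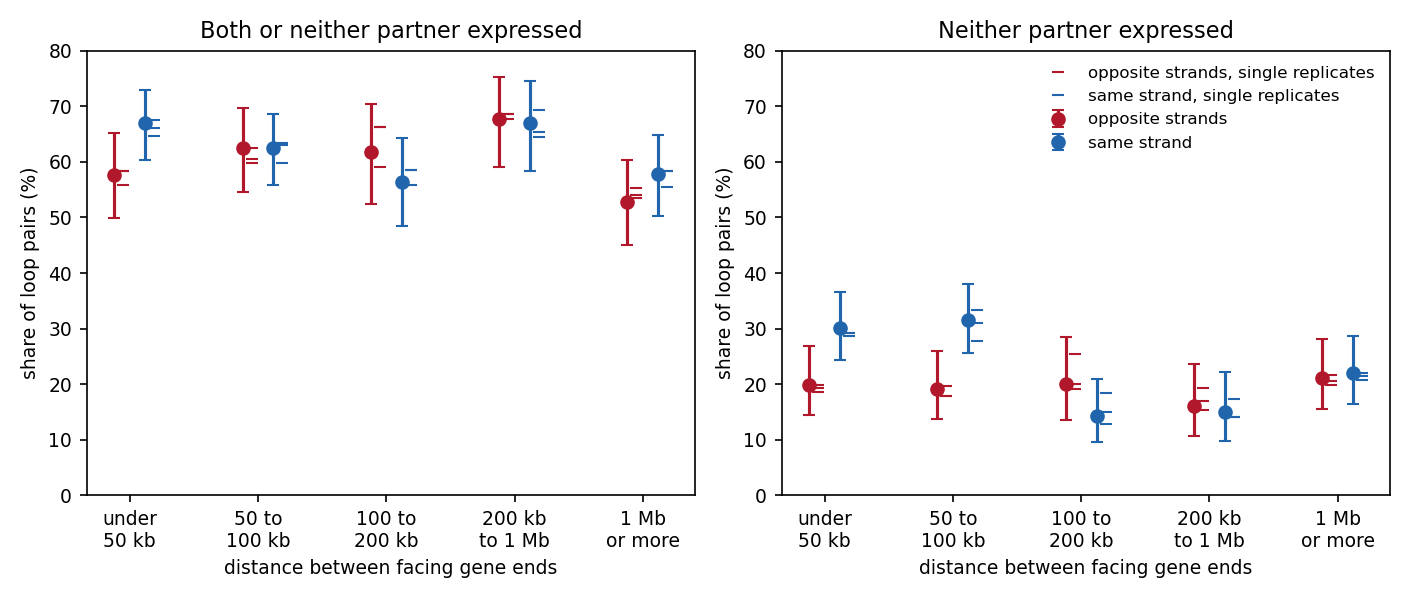
Share of loop pairs in percent against the distance between facing gene ends, for concordant pairs (left) and for pairs with neither partner expressed (right), on opposite strands (red) and on the same strand (blue). Points are values from the median of the replicates with 95% Wilson intervals, and short dashes are single replicates. Silent pairs were at 19.9% against 30.1% under 50 kb and at 21.1% against 22.0% at 1 Mb or more.

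At 100 kb or more, silent pairs made up 19.2% of 395 opposite-strand pairs (15.7 to 23.4%) and 17.4% of 447 same-strand pairs (14.2 to 21.2%), with overlapping intervals. The share of opposite-strand pairs with both genes expressed was highest at 200 kb to 1 Mb (64 of 124, or 51.6%) and lowest at 1 Mb or more (51 of 161, or 31.7%). Same-strand pairs of the same classes gave 52.0% and 35.8%. Concordance followed the same course in opposite-strand pairs, with 57.7% under 50 kb, 62.4% at 50 to 100 kb, 61.8% at 100 to 200 kb, 67.7% at 200 kb to 1 Mb and 52.8% at 1 Mb or more. In the last class, independent partners would give 50.5%, and the log2 odds ratio was 0.27. Divergent and convergent pairs were at 52.6 and 53.0% there. The intervals of all 5 classes overlapped for concordance. For the share with both genes expressed, the interval at 200 kb to 1 Mb (42.9 to 60.2%) did not overlap that at 1 Mb or more (24.99 to 39.2%).

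Where both partners were expressed, their levels were often far apart. In the 288 opposite-strand pairs the lower partner had a median of 0.194 TPM and the higher partner a median of 3.15 TPM. The absolute log2 ratio of the partners' TPM, with 0.01 TPM added to each, had a median of 2.79, or 6.93-fold, and quartiles of 1.31 and 4.98. Single replicates gave medians of 2.92, 2.77 and 2.51. In 60 of the 288 pairs (20.8%) the partners were within 2-fold of each other, and in 71 (24.7%) they were more than 32-fold apart. In 68 of the pairs (23.6%) the lower partner rested on fewer than 3 estimated counts, so part of the widest ratios are imprecise. The gene that starts first was the higher one in 147 of the 288. As a description, TPM of the partners had a Spearman's rho of 0.06 across the 288 pairs, whose values share the same libraries and, in part, the same genes.

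**Figure D3:**
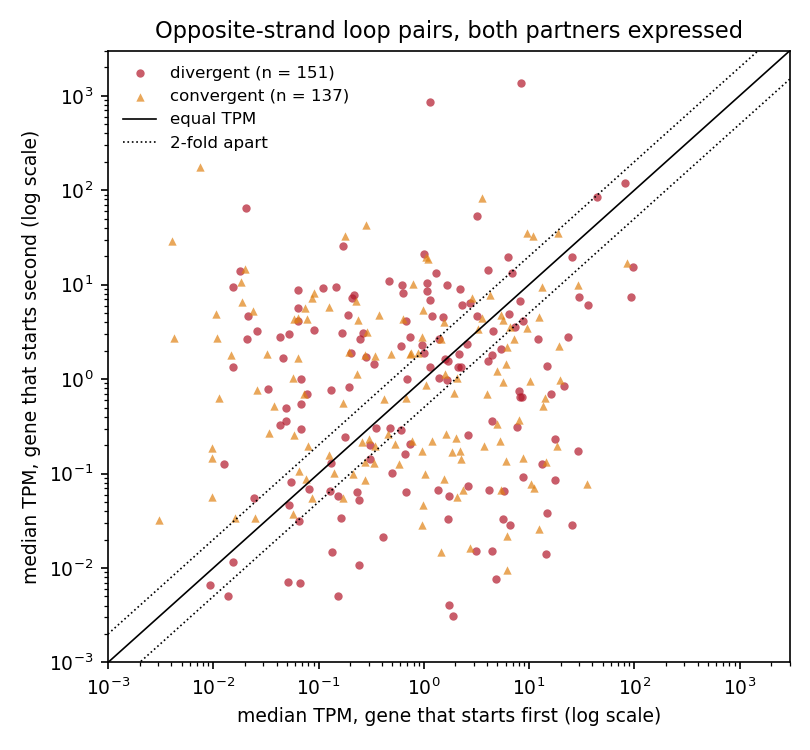
Median TPM of the gene that starts second against that of the gene that starts first, both on log scales, for the 151 divergent (circles) and 137 convergent (triangles) pairs with both partners expressed. The solid line marks equal TPM and the dotted lines a 2-fold difference, within which 60 of the 288 pairs lie.

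The median absolute log2 ratio of same-strand pairs was 2.64 over 334 pairs (2.80 on the plus strand and 2.20 on the minus strand). Of these pairs, 89 (26.6%) were within 2-fold. The difference in medians between opposite-strand and same-strand pairs, 0.15, had no stable size. It was 0.40 and 0.36 without replicate 1 or 2, 0.76 in pairs that share no gene and -0.0078 over every row. At 100 kb or more the order was turned, with 2.60 in opposite-strand and 2.69 in same-strand pairs. The within-2-fold share was 19.4, 20.6 and 20.3% of opposite-strand pairs and 26.2, 24.2 and 25.6% of same-strand pairs in single replicates, which did not overlap. By the median of the replicates, the order was turned at 50 to 100 kb (32.4 against 26.9%) and on chromosome 1B (34.1 against 31.6%). In pairs of high-confidence genes the shares were closer, at 21.2 and 24.5%. Divergent pairs had a median absolute log2 ratio of 2.66 and convergent pairs of 2.99 by the median of the replicates, but in single replicates the divergent medians (2.98, 2.87 and 2.66) were above the convergent ones (2.89, 2.66 and 2.43). The orientations within opposite strands were therefore not told apart by the ratio between partners. In level, the lower partner had a median of 0.209, 0.220 and 0.194 TPM in divergent pairs and of 0.136, 0.207 and 0.154 TPM in convergent pairs. The higher partner had 3.25, 4.33 and 2.36 TPM against 2.43, 3.75 and 1.66 TPM. Divergent pairs were thus the higher ones within every replicate over both chromosomes, although the ranges over the replicates overlapped. On chromosome 1A alone, convergent pairs were higher by the median of the replicates. There the lower partner had 0.224 against 0.207 TPM and the higher partner 4.41 against 4.15 TPM. Convergent pairs on 1A also led in replicate 2, but not in replicates 1 and 3. In pairs of high-confidence genes the higher partner had 4.85 TPM in convergent and 3.25 TPM in divergent pairs. Both partners reached 1 TPM in 46 of the 151 expressed divergent pairs (30.5%) and 27 of the 137 convergent pairs (19.7%), and they reached 10 TPM in 4 and 3.

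The gap in similarity was widest among the closest loops. Under 50 kb, opposite-strand partners had a median absolute log2 ratio of 3.71 over 59 pairs and same-strand partners 2.33 over 77 pairs. The same-strand median was 3.15 in 38 plus-strand pairs and 1.92 in 39 minus-strand pairs. Single replicates of the plus-strand pairs (3.97, 3.45 and 2.87) overlapped those of the opposite-strand pairs (3.90, 3.53 and 3.60). Partners within 2-fold made up 6 of the 59 (10.2%) and 25 of the 77 (32.5%), the latter with 12 of 38 plus-strand and 13 of 39 minus-strand pairs. In single replicates the share was at most 12.9% of opposite-strand pairs and at least 23.4% of same-strand pairs, so the replicates did not overlap. The difference was -22.3 points with the median of the replicates, -17.0, -11.1 and -14.3 points in single replicates, and -11.4, -9.04 and -16.4 points without replicate 1, 2 or 3. With expression set at 1 TPM or more it was -50 points over 10 and 20 pairs. On chromosome 1B, where 6 and 10 pairs remained, the order was turned (2 of 6 against 2 of 10). At 50 to 100 kb the medians were 2.23 and 2.55, with the opposite-strand pairs the more similar ones, and at 100 to 200 kb they were 2.65 and 2.65.

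**Figure D4:**
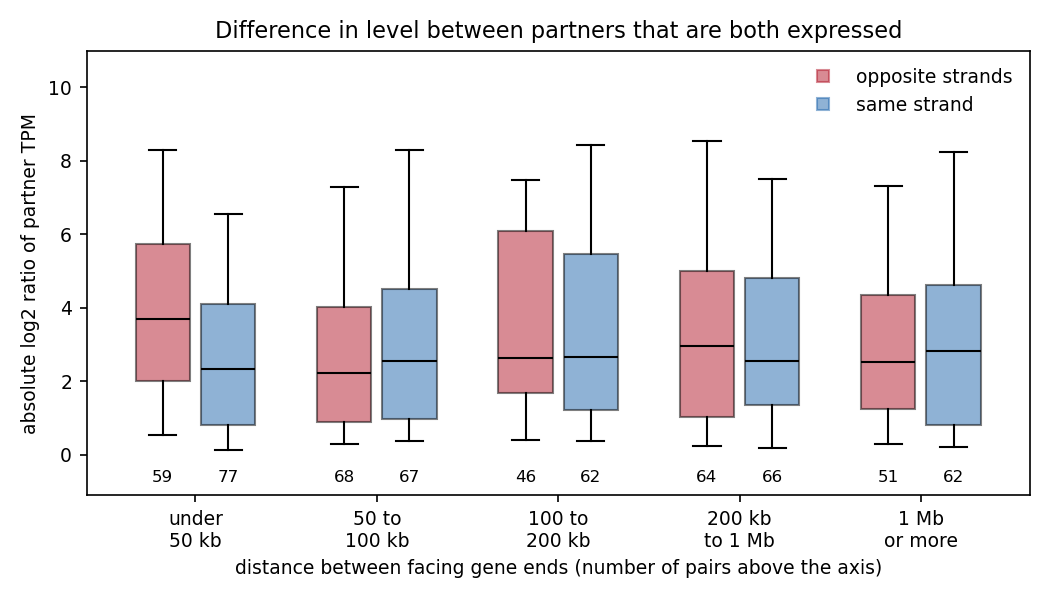
Absolute log2 ratio of partner TPM (0.01 TPM added to each) against the distance between facing gene ends, for pairs with both partners expressed on opposite strands (red) and on the same strand (blue). Boxes span the quartiles with the median as a line, whiskers run from the 5th to the 95th percentile, and the number of pairs stands under each box. Under 50 kb the medians were 3.71 and 2.33, the latter made up of 3.15 in plus-strand and 1.92 in minus-strand pairs.

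The divergent pair with the highest lower partner joined TraesCS1A02G089500 (minus strand, bases 78962470-78964533 of chromosome 1A in IWGSC RefSeq v1.0, the build of all coordinates here) to TraesCS1A02G089600 (plus strand, 79107177-79108103), 143 kb away. TraesCS1A02G089500 had 81.0, 116 and 81.8 TPM in replicates 1, 2 and 3, and TraesCS1A02G089600 had 107, 173 and 118 TPM. Both were highest in replicate 2, and the log2 ratio of the partners kept at -0.53 ± 0.09 (SD, n = 3). For all named pairs, the ratio is that of the partners' median TPM. The SD is that of the ratios in single replicates, whose mean can differ from the ratio given. TraesCS1A02G085400 (71548289-71548949) and TraesCS1A02G085600 (71689760-71695155), 141 kb apart with starts facing across 1 other high-confidence gene, were likewise both highest in replicate 2. They had 25.7, 30.5 and 12.9 TPM and 19.5, 25.5 and 11.3 TPM, with a log2 ratio of 0.39 ± 0.10 (SD, n = 3). The level of each of these genes varied over the replicates more than the ratio within its pair did. A highest value in replicate 2 was common, at 58.8% of partners in all 176 loop pairs with both at 1 TPM or more.

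The other divergent pairs with a high lower partner were less even. TraesCS1A02G289600 (486743602-486743796) had 46.5, 44.5 and 31.2 TPM and TraesCS1A02G289900 (486816908-486817108) had 129, 84.8 and 38.5 TPM, so that the log2 ratio of -0.93 varied with an SD of 0.58 (n = 3). Both are short genes that rest on 185 and 376 estimated counts. TraesCS1A02G253200LC (261371357-261372823) and TraesCS1A02G419800LC (474171539-474172312) lay 213 Mb apart. The former had 96.5, 123 and 61.0 TPM, lowest in replicate 3, and the latter 15.4, 14.8 and 18.0 TPM, highest in replicate 3. Unlike the pairs above, these partners did not follow each other over the replicates.

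Among convergent pairs, the highest lower partner was at a lower level. TraesCS1A02G133500 (plus strand, 188132555-188151899) had 18.6, 20.7 and 10.5 TPM and TraesCS1A02G205600LC (minus strand, 188223369-188227432), whose end faces it across 71.5 kb, had 36.8, 34.9 and 20.8 TPM. The log2 ratio was -0.90 ± 0.14 (SD, n = 3). In TraesCS1A02G082000 (65261477-65265780) and TraesCS1A02G082200 (65391963-65393451) the levels were 31.0, 29.4 and 19.1 TPM and 9.97, 9.95 and 6.60 TPM, and the log2 ratio was 1.56 ± 0.05, the steadiest of the named convergent pairs with a high lower partner. In TraesCS1A02G097200 (93397630-93401378) and TraesCS1A02G097400 (93693503-93698187), 292 kb apart, they were 9.56, 9.68 and 7.78 TPM and 35.2, 35.2 and 21.7 TPM. All of these genes were lowest in replicate 3. Low levels there were not particular to them. In all 176 loop pairs with both partners at 1 TPM or more, replicate 3 was the highest for only 9.1% of partners.

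TraesCS1A02G289900, named above in a divergent pair, also faced the end of TraesCS1A02G433900LC (486944570-486945471) in a convergent loop of 127 kb. The latter had 16.8, 16.8 and 6.37 TPM. The log2 ratio between them was 2.33 by the medians and 2.94, 2.33 and 2.60 in single replicates (SD 0.30, n = 3). The remaining convergent pair of this kind, TraesCS1A02G237800 (423675499-423676890) and TraesCS1A02G418810LC (472429025-472431049), spanned 48.8 Mb and was also the convergent pair farthest apart with both partners at 1 TPM or more. Its partners had 10.6, 12.7 and 10.9 TPM and 38.8, 32.7 and 24.4 TPM. The partner on the minus strand was highest in replicate 1 and the one on the plus strand in replicate 2.

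**Figure D5:**
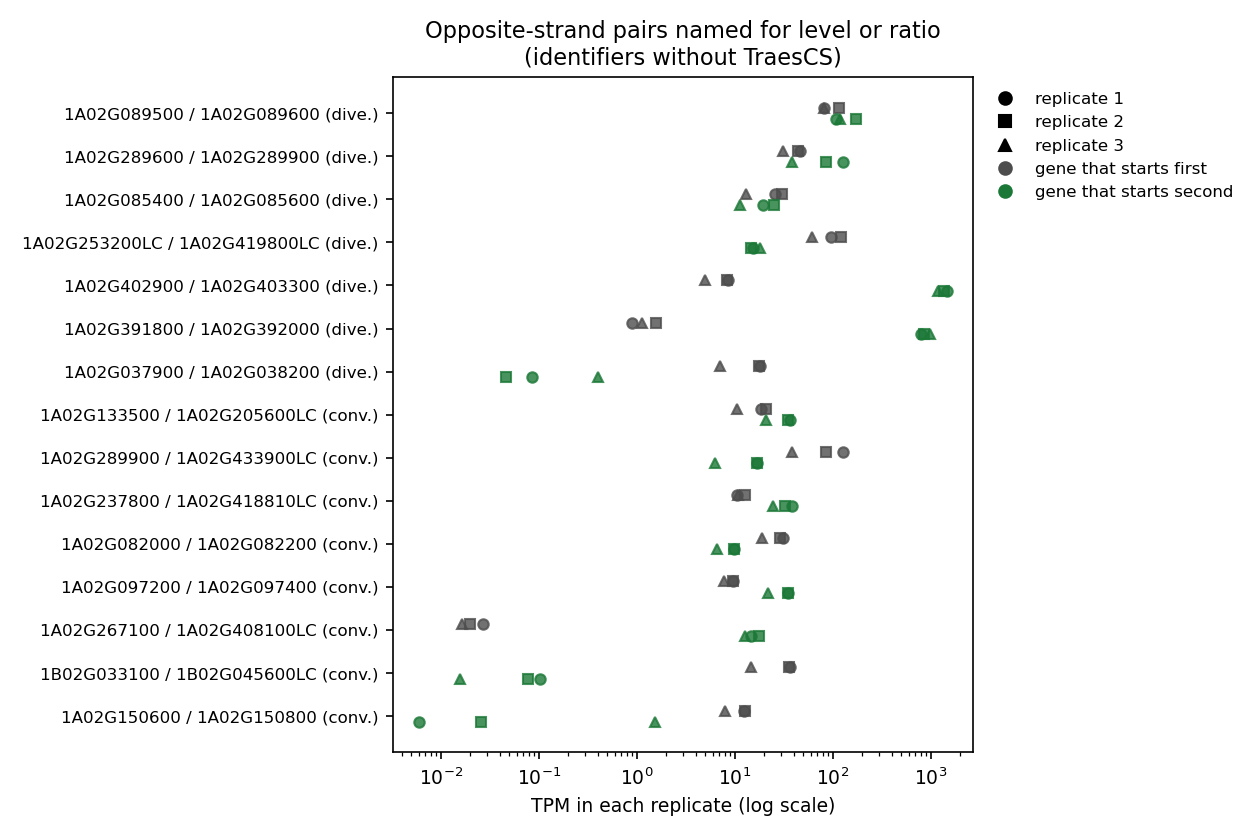
TPM in each replicate (log scale, marker shape gives the replicate) of the 15 opposite-strand pairs named for the level of their lower partner or for the ratio between partners. In TraesCS1A02G089500 and TraesCS1A02G089600 the partners lay between 81.0 and 173 TPM, while TraesCS1A02G391800 and TraesCS1A02G392000 were near 1 TPM and above 790 TPM.

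Both of the most abundant transcripts in opposite-strand loops came from divergent genes whose partners were at far lower levels. TraesCS1A02G403300 (plus strand, 566564178-566564978) had 1458, 1379 and 1176 TPM, and its partner TraesCS1A02G402900 (minus strand, 566480047-566483482), 80.7 kb away with facing starts, had 8.56, 8.33 and 4.97 TPM. Between these partners lay 3 other high-confidence genes. TraesCS1A02G392000 (558590999-558591872) had 795, 857 and 983 TPM against 0.905, 1.59 and 1.14 TPM in TraesCS1A02G391800 (558539923-558541668), 49.3 kb away. The log2 ratios were -7.37 ± 0.29 and -9.54 ± 0.40 (SD, n = 3), and the lower partners rested on 592 and 110 estimated counts, so these ratios are not a matter of single reads. A convergent gene with high transcript levels was chosen after its values were seen. TraesCS1A02G281000 (478625937-478628984) had 223, 178 and 69.8 TPM, while TraesCS1A02G280900, 55.2 kb away, had 0, 0.00741 and 0.0219 TPM. The median of the latter rested on 1.02 estimated counts, so the size of this ratio is not known.

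Other wide ratios rested, by the median of the replicates, on few reads at the low side. In the divergent pair TraesCS1A02G037900 (20977276-20980680) and TraesCS1A02G038200 (21022731-21023627) the levels were 18.1, 17.6 and 7.03 TPM and 0.0851, 0.0466 and 0.401 TPM, the latter with a median of 4.27 estimated counts. In the convergent pair TraesCS1A02G150600 (258738361-258743663) and TraesCS1A02G150800 (258857615-258862764) they were 12.5, 12.7 and 8.02 TPM and 0.00603, 0.0258 and 1.56 TPM, the latter on 1, 4.08 and 242.5 estimated counts. In both pairs the lower partner was highest in replicate 3, where the higher partner was lowest. The log2 ratios of 7.53 and 8.45 by the medians had SDs of 2.24 and 3.90 (n = 3). Single replicates gave 7.57, 8.28 and 4.10 in the divergent pair and 9.61, 8.48 and 2.36 in the convergent pair. The convergent pair TraesCS1A02G267100 (462390320-462395850) and TraesCS1A02G408100LC (462434303-462434605) was steadier, at 0.0269, 0.0201 and 0.0164 TPM against 14.7, 17.6 and 12.8 TPM. TraesCS1B02G033100 (16214960-16215274) at 37.1, 35.7 and 14.7 TPM and TraesCS1B02G045600LC (23970611-23978947) at 0.104, 0.0780 and 0.0157 TPM were the only named pair of these ratios on chromosome 1B.

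None of the closest opposite-strand partners named here exceeded 1.83 TPM in any replicate. TraesCS1B02G011439 (minus strand, 5272384-5273665) and TraesCS1B02G009700LC (plus strand, 5272419-5354969) were the single pair whose intervals overlapped, and both were listed at 0 TPM in all 3 replicates. The divergent genes TraesCS1A02G378600 (551278287-551281179) and TraesCS1A02G531800LC (551283787-551300013), with starts 2.61 kb apart, had 1.18, 1.23 and 0.591 TPM against 0 TPM in every replicate. The convergent genes TraesCS1B02G070600 (55967357-55968591) and TraesCS1B02G107100LC (55971115-56014576), with ends 2.52 kb apart, were similar instead, at 0.688, 0.682 and 0.367 TPM and 0.938, 0.624 and 0.440 TPM. In TraesCS1A02G329300 (518046191-518047641) and TraesCS1A02G329400 (518058089-518085731), 10.4 kb apart, the levels were 0.340, 0.465 and 0.189 TPM and 1.83, 1.75 and 0.668 TPM. The libraries were made with a directional kit, but whether the authors' quantification used the strand is not given in the sources used here, so reads in such close genes may not be fully separated.

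Loops over very long distances also joined genes that were both on. Among pairs with both partners at 1 TPM or more, the farthest divergent ones were TraesCS1B02G021200 (9720065-9724052) with TraesCS1B02G396200LC (377092991-377093738), 367 Mb apart, and TraesCS1A02G062100LC (27376866-27382109) with TraesCS1A02G307400LC (332043136-332043612), 305 Mb apart. In the former the levels were 1.65, 2.15 and 0.597 TPM and 9.82, 11.04 and 6.81 TPM. In the latter they were 1.69, 1.97 and 0.884 TPM and 1.55, 1.83 and 0.775 TPM, nearly equal in every replicate. The convergent genes TraesCS1A02G330900 (519872272-519873680) and TraesCS1A02G376400 (550611490-550616190), 30.7 Mb apart, had 1.09, 1.41 and 1.08 TPM and 18.9, 19.1 and 8.95 TPM. Near-equal levels were thus found at long distance in the divergent pair on chromosome 1A and unequal ones in the others.

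In the 283 opposite-strand pairs with 1 expressed partner, that partner had a median of 0.892 TPM, against 0.485 TPM in the 329 such same-strand pairs. Taking the higher partner of each of these pairs in single replicates, the medians were 0.892, 1.04 and 0.654 TPM against 0.490, 0.593 and 0.379 TPM, without overlap. In 227 of the 283 (80.2%) the other partner was listed at 0 in all 3 replicates. Highly expressed genes occurred among them. TraesCS1A02G089500, the divergent partner of TraesCS1A02G089600 above, also looped to TraesCS1A02G125600LC (79087926-79088330), which was at 0 in each replicate. TraesCS1A02G415200 (574336004-574341165) had 75.2, 79.7 and 61.5 TPM and its divergent partner TraesCS1A02G415500 (574392739-574394889), 51.6 kb away, was at 0 in each. In convergent loops, TraesCS1A02G404500 (568008271-568014103) had 87.0, 65.6 and 31.8 TPM and faced TraesCS1A02G578400LC (568046583-568047038) at 0, and TraesCS1A02G057200 (37478206-37481881) had 54.0, 58.1 and 92.2 TPM with TraesCS1A02G571100LC (564610180-564621246) at 0, 527 Mb away.

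The 3 genes in the most opposite-strand pairs were hardly transcribed. TraesCS1B02G039900LC (19830235-19831143) belonged to 6 such pairs, 4 divergent and 2 convergent, and was listed at 0 TPM in all replicates, with 2 of its 6 partners expressed. TraesCS1A02G075300 (58369546-58370343) belonged to 5, with 0.131, 0.202 and 0.107 TPM, and 3 of its 5 partners were expressed. TraesCS1B02G026400LC (13235247-13243023) belonged to 5, with 0.00698, 0 and 0.0102 TPM, and 1 of its 5 partners was expressed. No partner of these genes exceeded 0.775 TPM. TraesCS1B02G039900LC and TraesCS1B02G026400LC lie on chromosome 1B, where neither partner was expressed in 34.9% of opposite-strand pairs, against 14.4% on 1A. Whether the number of pairs of a gene goes with its level was not tested.

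The status of an opposite-strand pair was the same in every replicate in 557 of 708 cases (78.7%), a share equal to that of same-strand pairs (686 of 872, 78.7%). Both partners were detected in all 3 replicates in 243 pairs, neither in any in 111, and the same single status of 1 expressed partner held in 203. Among the 73 opposite-strand pairs with both partners at 1 TPM or more, the partners were highest in the same replicate in 36 (49.3%), where the frequencies of the highest replicate alone would give 42.7%. For same-strand pairs the numbers were 52 of 103 (50.5%) and 48.3%. In divergent pairs the share was 26 of 46 (56.5%, against 43.3% from the frequencies) and in convergent pairs 10 of 27 (37.0%, against 41.8%), and most of these genes were highest in replicate 2. With 3 libraries these are counts only, and a difference between the orientations was not tested.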

How the data were processed

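Poly(A) RNA of 3 wild-type shoot replicates was sequenced with a directional kit. The submitters' processing notes name Trimmomatic 0.36 and kallisto, whose version is not given in the sources used here. The authors deposited, per transcript, estimated counts (not normalized, in fractions) and TPM, the share of each transcript per effective length, set to a common sum in every library. Per the file headers, transcript lengths are given too. TPM was summed over transcripts per gene and the median of the replicates taken. Reads of near-identical copies are divided by kallisto, so their values are uncertain.

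Gene pairs, strands and coordinates were read from the supplied 1999 rows of the study's loop table, and the other rows were not analysed here. No mark, expression or other value of that table was used. The members and lists were chosen with earlier results of these data known. The RefSeq table given matched 0 identifiers. No test was run over pairs, since pairs share genes and the libraries are of a single condition. The code was tested on simulated data. Named pairs, separately for divergent and convergent ones, were the 5 with the highest lower partner, the 3 with the largest ratio among those above 0 in every replicate and at 3 or more estimated counts, the 2 closest, the 2 farthest with both at 1 TPM, the 2 with the highest gene joined to one at 0, and overall the 3 genes in the most pairs. The check of the shoot label by markers was not possible without gene names. Alternatives were other cuts (0.5 and 1 TPM, 3 estimated counts), the mean, leaving out replicates, pairs that share no gene, high-confidence pairs, each chromosome, every row, the distance between gene starts and pseudocounts of 0.1 and 1 TPM. Tables were handled with pandas 2.3.3 and numpy 2.4.6 in Python 3.11.15, and figures drawn with matplotlib 3.10.9.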

Additional observations from a re-analysis of the deposited data

Results flagged for a closer look

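In several subsets of pairs the sign of a difference in concordant status was the same in all 3 replicates and opposite to that of another subset. None of these contrasts was tested, and the replicates share the same pairs, so equal signs over them are weak evidence. The opposite-strand minus same-strand difference was -9.29 points under 50 kb and 5.36 points at 100 to 200 kb, a contrast of -14.6 points, and it was -5.01 points at 1 Mb or more, a contrast of 10.4 points with the 100 to 200 kb class. The divergent minus convergent difference was 1.48 points under 50 kb, against -8.13 points at 50 to 100 kb, -7.67 at 100 to 200 kb and -4.50 at 200 kb to 1 Mb, which gives contrasts of 9.61, 9.15 and 5.98 points. The same difference was 5.17 points in pairs of high-confidence genes, -10.5 points in pairs of a high-confidence with a low-confidence gene and -11.9 points in pairs of low-confidence genes, which gives contrasts of 15.6 and 17.1 points.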

How the results depend on the processing

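No value here had a test, and a value is called moved where it shifted by more than the SD over the replicates. No paired analysis was possible because the samples form a single group. The concordant share of opposite-strand pairs (60.0%) stayed between 56.4 and 65.4%: it was 64.4% with the mean of the replicates, 60.7% in pairs that share no gene, 65.4% with high-confidence pairs, 58.8% and 61.9% with cuts at 0.5 and 1 TPM, 56.4% with at least 3 estimated counts, 62.9% over every row and 62.4 to 63.1% without a replicate. The difference from same-strand pairs (-2.24 points) was 1.91 points with the mean, 1.37 over every row and 0.50 to 1.41 without a replicate, and -0.90, -0.52, -6.15, -5.91 and -6.37 points in pairs that share no gene, high-confidence pairs, 0.5 TPM, 1 TPM and 3 counts. Within distance classes (-2.23 points) these settings gave 1.71, 1.23, 0.41 to 1.30, -0.73, -0.40, -5.93, -5.44 and -6.24 points. The divergent minus convergent difference (-3.11 points) was 1.16 points in pairs that share no gene, 5.17 with high-confidence pairs, 0.83 on chromosome 1A, -15.3 on chromosome 1B, 1.77 and 1.59 at 0.5 and 1 TPM, -5.74 over every row and -4.98 to -1.27 without a replicate. The median absolute log2 ratio (2.79) was 3.00 with the mean, 3.30 in pairs that share no gene, 3.10 on chromosome 1A, 1.85 on 1B, 1.51, 1.39 and 2.44 at 0.5 TPM, 1 TPM and 3 counts, 2.29 and 1.25 with pseudocounts of 0.1 and 1 TPM, and 2.84 to 2.85 without a replicate. Its difference from same-strand pairs (0.15) was 0.48 with the mean, 0.76 in pairs that share no gene, 0.064 with high-confidence pairs, 0.44 on 1A, 0.055 on 1B, 0.23, 0.36 and 0.018 at 0.5 TPM, 1 TPM and 3 counts, -0.0078 over every row and 0.19 to 0.40 without a replicate. The differences in silent pairs under 100 kb and in pairs within 2-fold under 50 kb, chosen after seeing the data, kept their sign except on chromosome 1B (2.40 and 13.3 points). The causes were not tested, and cuts on TPM or counts change which genes are compared.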
